A study of Homo sapiens with 10 samples.

Results

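FCER1G, PTPN6 and 8 further genes of platelet ITAM signalling (PTPN11, GP6, FCGR2A, SYK, LYN, BTK, LCP2 and PLCG2) were examined in MEG-01 cells that had received a precursor of miR-1225-3p. The 10 genes were listed by name with results of these arrays already known, and every array probe whose RefSeq accession leads to one of these symbols was taken. All 10 had a probe, 13 probes in all. Of these, 12 probes for 9 genes cleared the background filter (flagged well above background by the scanner software on 3 or more arrays) in both groups, and these 9 genes stood among the 17379 genes tested across the whole array. SYK did not pass. FCER1G and PTPN6 were singled out by the study from these same arrays as strongly lowered genes, and FCGR2A, LYN and BTK stand in its list of platelet-related genes changed on them. The calls and directions of these 5 genes are therefore not independent evidence here, nor is the number called. The study also measured FCER1G and PTPN6 by qRT-PCR in the transfected samples and reported both as lowered. Those measurements were not analysed here.

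MEG-01 is a human megakaryoblastic leukemia cell line, used by the study as a stand-in for megakaryocytes, the parent cells of platelets. The study asked which transcripts move when miR-1225-3p, a microRNA that it found raised in platelets of patients with sickle cell disease, is raised in such cells. The miR-1225-3p group held 5 cultures nucleofected with 200 nM of the double-stranded precursor, and the scrambled group held 5 cultures nucleofected in the same way with 200 nM of a random-sequence negative control precursor. RNA was taken after 24 hours, so that nucleofection, an RNA oligonucleotide and the time in culture are common to both groups. Both groups come from a single leukemia line, the replicates are labelled as biological ones from experiments run in parallel, and no sort of the transfected cells is described in the methods. The level of the microRNA itself was not analysed here.

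Platelets sense collagen and antibody-coated surfaces through receptors whose cytoplasmic tails carry an immunoreceptor tyrosine-based activation motif, or ITAM. Src family kinases such as LYN phosphorylate the ITAM, SYK docks on it and becomes active, and an adaptor complex built on LCP2 brings BTK and phospholipase C gamma 2 together, which releases calcium from internal stores. Receptors with an inhibitory counterpart of the motif, the ITIM, recruit the tyrosine phosphatases encoded by PTPN6 and PTPN11, and PTPN6 in particular dampens signals of this kind in blood cells.

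The delivered microRNA is shown because its precursor is what the miR-1225-3p group received in place of the random-sequence control precursor. Its mature sequence in RefSeq (GRCh38.p14, chr16:2090195-2090216, minus strand) is 22 bases long, with the seed, bases 2 to 8, in capitals.
hsa-miR-1225-3p: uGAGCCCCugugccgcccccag
A transcript pairs with this seed where it reads GGGGCUC. No other of the 2370 mature microRNA names in the table shared the seed, and 77.3% of the mature sequence was G or C. Whether the transcripts of the 10 genes carry such a site was not tested.

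The share of spots well above background ran from 41.95% to 53.85% for miR-1225-3p and from 43.09% to 61.18% for scrambled arrays, and with 5 arrays a group it is their number that sets how precise each value can be. Signals are processed Cy3 intensities on a log2 scale after cyclic loess normalization, a smoothing that aligns the arrays with each other. Changes are log2 fold changes of miR-1225-3p over scrambled, written log2FC, with their standard error (SE). A gene is represented by its brightest kept probe, and a gene is called when its adjusted p from limma is under 0.05. On the first principal component, which held 69.6% of the variance, miR-1225-3p replicate 5 scored 56.74, within the range of the scrambled arrays (48.65 to 79.87), whereas miR-1225-3p replicates 1 to 4 scored between -133.4 and -52.98. The results are therefore given with and without that array. The arrays lay on 2 slides, each holding both groups.

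Of the 9 genes tested, 5 were called (55.6%), 4 lower and 1 higher in miR-1225-3p transfected cells, whereas 35.0% of all genes tested were called, 18.1% lower and 17.0% higher. FCER1G, FCGR2A, LYN and PTPN6 were lower, BTK was higher, and GP6, LCP2, PLCG2 and PTPN11 did not pass. The median log2 fold change of the 9 genes was -0.45, against -0.06 over all genes tested. A fold change above 2 was reached by FCER1G and PTPN6, both lower, while 11.7% of all genes were called lower and 5.69% higher with such a fold (17.4% in either direction). The arrays of both groups did not overlap for LYN and BTK, as was so for 12.7% of all genes. Once miR-1225-3p replicate 5 was left out, 7 of the 9 were called (77.8%), with GP6 and PLCG2 added as higher, against 55.4% of all genes. In this bulk RNA, fewer cells that express a gene and less of its RNA per cell cannot be told apart.

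**Figure D1:**
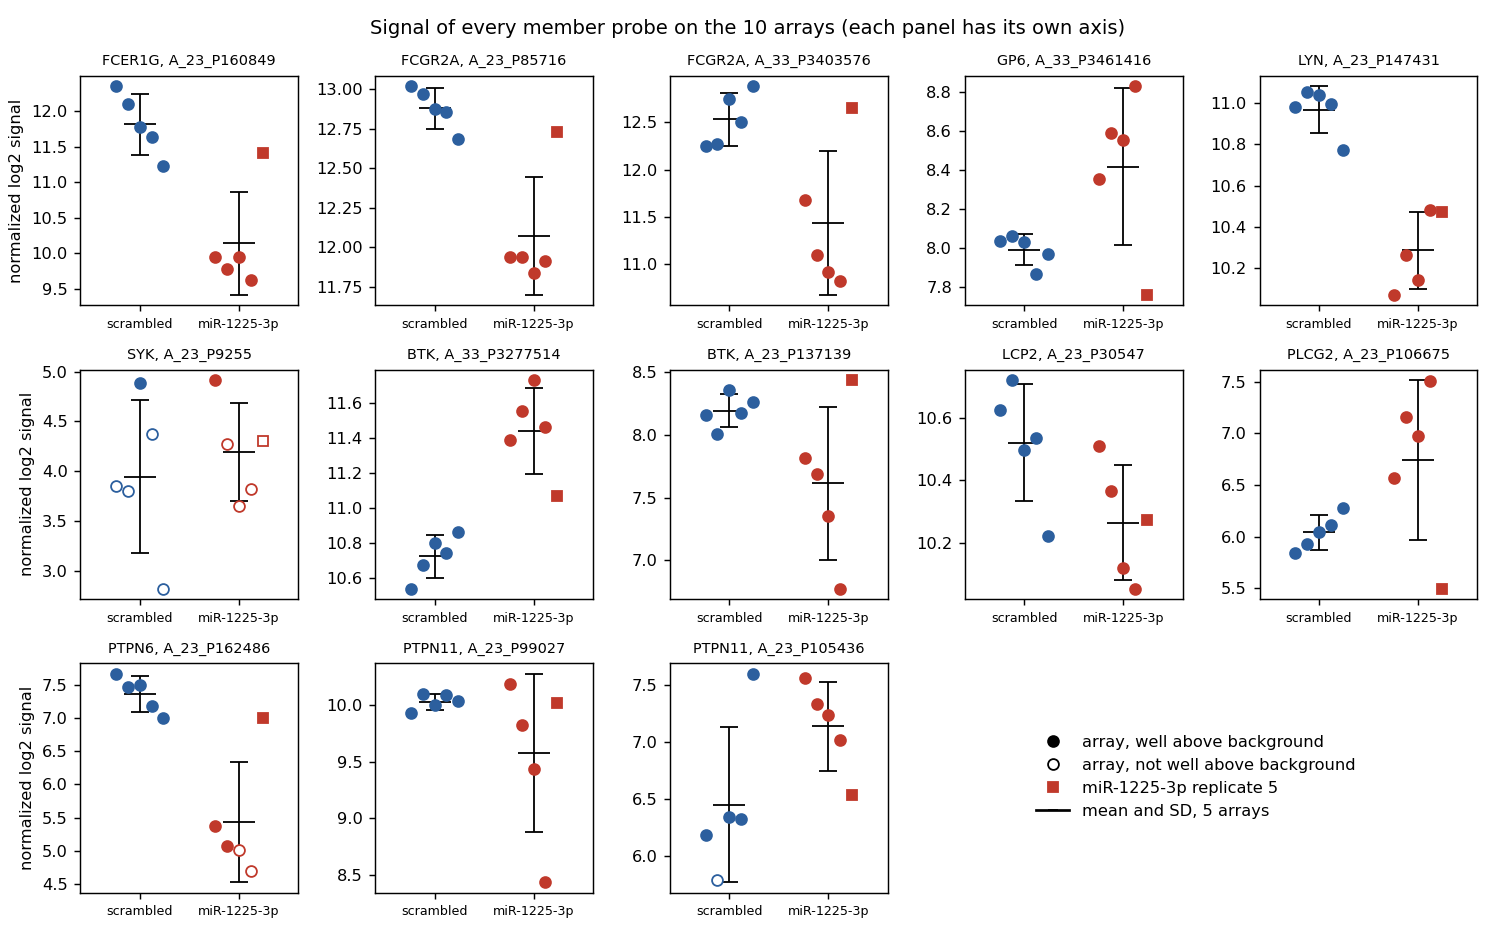
Normalized log2 signal of each of the 13 probes (one panel per probe, each with its own vertical axis) on the 5 scrambled (blue) and 5 miR-1225-3p (red) arrays, with the mean and SD of each group; open symbols are arrays on which the probe was not well above background, and the red square is miR-1225-3p replicate 5. For FCER1G, FCGR2A and PTPN6 the square lies with the scrambled arrays, whereas for LYN it lies with the other miR-1225-3p arrays.

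The receptors and ITAM chains come first. FCER1G encodes the Fc receptor gamma chain, the ITAM-bearing subunit that pairs with the collagen receptor GP6 and with several Fc receptors and that holds GP6 at the platelet surface. FCER1G (probe A_23_P160849) was read at normalized log2 signals of 9.94, 9.77, 9.94, 9.62 and 11.41 in miR-1225-3p replicates 1 to 5, and at 12.35, 12.09, 11.77, 11.64 and 11.22 in scrambled replicates 1 to 5. Replicates 1 to 4 of the miR-1225-3p group lay below every scrambled array, and replicate 5 lay inside the scrambled range. FCER1G was 3.20-fold lower in miR-1225-3p transfected cells, at 10.14 ± 0.723 against 11.81 ± 0.433 (SD, n = 5 each), or log2FC -1.68 (SE 0.346), with a 95% interval from -2.45 to -0.91 (limma, adjusted p = 0.0141). An exact permutation test over the 10 arrays gave p = 0.0159, where 0.00794 is the smallest p that the design allows. Without replicate 5 the fold was 3.99, the adjusted p from limma 0.000141, and the miR-1225-3p arrays clustered at 9.82 ± 0.156 (SD, n = 4). By size of change FCER1G ranked 1317 of the 17379 genes.

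FCGR2A encodes a low-affinity receptor for immunoglobulin G that carries an ITAM in its own tail and needs no separate chain. Its brightest probe (A_23_P85716) read 11.94, 11.94, 11.84, 11.91 and 12.73 in miR-1225-3p replicates 1 to 5 and 13.02, 12.97, 12.88, 12.85 and 12.68 in scrambled replicates 1 to 5. The pattern across arrays was that of FCER1G, with miR-1225-3p replicates 1 to 4 low and close together and replicate 5 above the lowest scrambled array. FCGR2A was 1.75-fold lower, with log2FC -0.81 (SE 0.183, limma, adjusted p = 0.0156), and the change was -0.98 without replicate 5. A further probe of the gene (A_33_P3403576) gave 11.68, 11.10, 10.92, 10.82 and 12.65 against 12.25, 12.27, 12.74, 12.50 and 12.88. It was lower too, with log2FC -1.09 (adjusted p = 0.0321 from limma fitted over all kept probes). FCGR2A has near-identical copies in FCGR2B and FCGR2C, and signal from these copies on its probes cannot be told apart.

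FCER1G and FCGR2A were also read against each other, as a description with no test, since the study had picked FCER1G for its low signal on these arrays. On each array, the difference between both signals averaged -1.93 ± 0.375 after miR-1225-3p and -1.07 ± 0.306 after the scrambled precursor (SD, n = 5 each), a shift of -0.87 on the log2 scale by the brightest probes. Without replicate 5 the shift was -1.02. The further FCGR2A probe, which fell more (log2FC -1.09 against -0.81) and so lay nearer the FCER1G change, was not used for it.

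GP6, the platelet collagen receptor that depends on the FCER1G chain, did not pass. Its probe (A_33_P3461416) read 8.35, 8.59, 8.56, 8.83 and 7.76 in miR-1225-3p replicates 1 to 5 and 8.04, 8.06, 8.03, 7.86 and 7.97 in scrambled replicates 1 to 5. Here replicates 1 to 4 stood above every scrambled array while replicate 5 stood below all of them. The log2FC was 0.43 with a 95% interval from 0.01 to 0.85 (limma, adjusted p = 0.0977). Without replicate 5 it was 0.59 and GP6 was called higher (limma, adjusted p = 0.00274), the opposite direction to FCER1G.

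Promoter stretches of these genes are shown because binding motifs of ETS and GATA factors, which drive many megakaryocyte genes, can be read in them directly. In the RefSeq promoter windows (GRCh38.p14, 250 bases before to 50 after a gene's start), 8 of the 10 genes had an entry, 12 windows in all, and LYN and PTPN11 had none. The ETS motif AGGAAG, searched on both strands (CTTCCT on the other), occurred in 11 of the 12 windows and for 8 of the 8 genes, and in 33.6% of all 35116 promoters. The GATA motif AGATAA, also searched on both strands (TTATCT on the other), occurred in 4 of the 12 windows, for 4 genes, and in 10.3% of all promoters. Capitals mark the motif in the lines that follow.
FCER1G, chr1:161215186-161215215, plus strand: ggtctcttgtgcAGGAAGgggaaggggcca
FCER1G, chr1:161215225-161215254, plus strand: ggaaggcgtggcAGGAAGagggggactctg
PTPN6, chr12:6946590-6946619, plus strand: gcaggatcgaggAGGAAGtggctgattact
PTPN6, chr12:6951310-6951339, plus strand: tcggccgcgcctCTTCCTgtccccgccctg
GP6, chr19:55038424-55038453, minus strand: gctggccagaggAGATAAgcgcggctcctt
FCER1G and PTPN6, which were called lower, and GP6, which was not called, all held the ETS letters. The GATA letters were held by GP6, as shown, and also by PTPN6, BTK and FCGR2A. A match in these letters is a description of the sequence and not a measured binding site. The transcripts of the ETS factor FLI1 and of GATA2 were themselves called lower (adjusted p = 0.0289 and 0.0138 from limma). GATA1 was not called (limma, adjusted p = 0.0572). Its mean signal was 9.03 after the microRNA precursor and 10.07 after the scrambled one. The part of these factors in the change of any member was not tested.

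Of the kinases, LYN was called lower and BTK, by its brightest probe, higher. LYN is the Src family kinase held ready at the GP6 receptor complex, and it phosphorylates both ITAMs and the ITIMs that recruit phosphatases. LYN (probe A_23_P147431) read 10.07, 10.26, 10.14, 10.48 and 10.47 in miR-1225-3p replicates 1 to 5 and 10.98, 11.06, 11.04, 11.00 and 10.77 in scrambled replicates 1 to 5. All miR-1225-3p arrays, replicate 5 included, lay below all scrambled arrays. LYN was 1.61-fold lower, at 10.28 ± 0.188 against 10.97 ± 0.113 (SD, n = 5 each), with log2FC -0.69 and SE 0.130 (limma, adjusted p = 0.0136). The two-sided exact permutation test gave p = 0.00794. The change was -0.73 without replicate 5. Its groups were separate on all 10 arrays, which was not so for FCER1G, FCGR2A and PTPN6. With subtraction of the 75th percentile in place of cyclic loess, which moved the median log2 fold change of all genes from -0.06 to 0.16, LYN (-0.24, adjusted p = 0.292 from limma) and FCGR2A (-0.27, adjusted p = 0.184 from limma) no longer passed.

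SYK, the kinase that binds phosphorylated ITAMs, could not be measured. Its probe (A_23_P9255), printed 10 times per array, cleared the background on 1 array of each group. Log2 signals ran from 3.65 to 4.92 in miR-1225-3p and from 2.82 to 4.89 in scrambled cells, with overlapping groups, and no fold is given.

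BTK, a Tec family kinase that phosphorylates and activates phospholipase C gamma 2, was the only gene of the 10 called higher. Its brightest probe (A_33_P3277514) read 11.39, 11.55, 11.73, 11.46 and 11.07 in miR-1225-3p replicates 1 to 5 and 10.54, 10.67, 10.80, 10.74 and 10.86 in scrambled replicates 1 to 5. The groups did not overlap, with replicate 5 the lowest of its group. BTK was 1.65-fold higher by this probe, with log2FC 0.72 (SE 0.146, 95% interval 0.40 to 1.04, limma, adjusted p = 0.0139). The further probe (A_23_P137139), which is listed under the same BTK transcript, opposed it. It read 7.81, 7.69, 7.35, 6.78 and 8.44 against 8.16, 8.004, 8.36, 8.18 and 8.26, with a log2FC of -0.58 that did not pass (adjusted p = 0.106 from limma over all kept probes). On that probe replicates 1 to 4 lay below every scrambled array and replicate 5 above every one of them. With the mean of both probes the BTK change was 0.07 (limma, adjusted p = 0.713), so the direction of BTK rests on which probe is read.

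**Figure D2:**
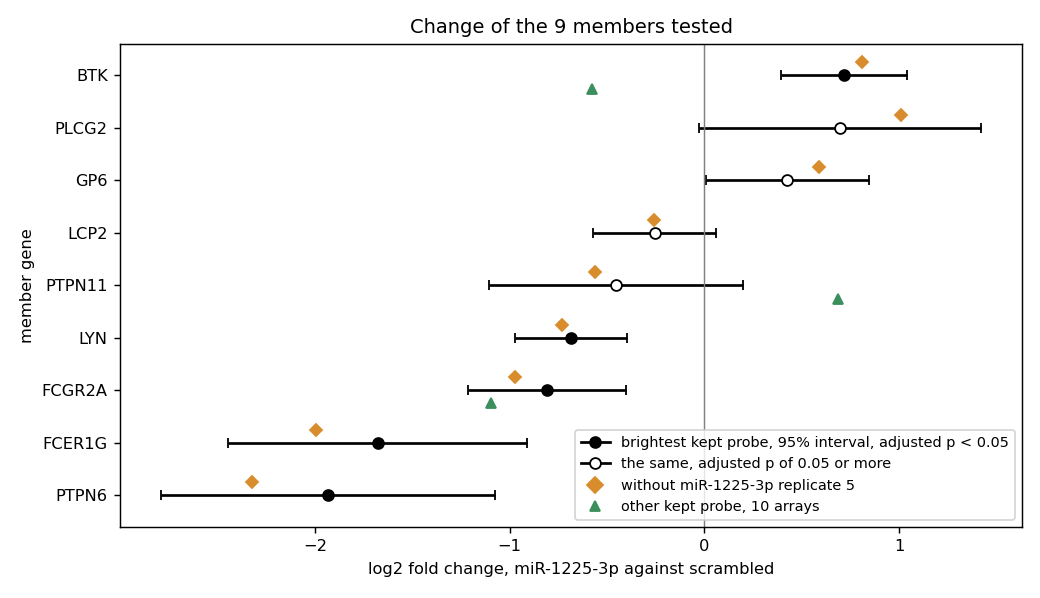
Log2 fold change, miR-1225-3p against scrambled (horizontal axis), of the 9 genes tested (rows), as black circles with 95% intervals from limma on 10 arrays, filled where the adjusted p was under 0.05. Orange diamonds leave out miR-1225-3p replicate 5, and green triangles are further probes, which oppose the main probe for BTK (-0.58 against 0.72) and PTPN11 (0.69 against -0.45) and side with it for FCGR2A.

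LCP2, the cytosolic adaptor on which the calcium-releasing complex is assembled, did not pass. LCP2 (probe A_23_P30547) read 10.51, 10.37, 10.12, 10.05 and 10.27 in miR-1225-3p replicates 1 to 5 and 10.63, 10.72, 10.50, 10.53 and 10.22 in scrambled replicates 1 to 5, so that the groups overlapped through scrambled replicate 5 and miR-1225-3p replicate 1. Its log2FC was -0.26 (95% interval -0.57 to 0.06, limma, adjusted p = 0.173) and turned to 0.17 when the 75th percentile was subtracted.

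PLCG2 encodes phospholipase C gamma 2, which splits a membrane lipid into the messengers that release calcium and activate protein kinase C. PLCG2 (probe A_23_P106675) read 6.56, 7.16, 6.97, 7.51 and 5.50 in miR-1225-3p replicates 1 to 5 and 5.84, 5.93, 6.05, 6.11 and 6.28 in scrambled replicates 1 to 5. As with GP6, replicates 1 to 4 were above all scrambled arrays and replicate 5 below all of them. The log2FC was 0.70 (95% interval -0.03 to 1.42, limma, adjusted p = 0.113), and without replicate 5 it was 1.01 and called (limma, adjusted p = 0.00186).

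On the processed signal the phosphatase PTPN6 had the largest change among the 9 genes, whereas with the normexp background correction FCER1G changed more (-1.64 against -0.89). PTPN6 encodes the tyrosine phosphatase that ITIM receptors recruit to switch ITAM signals off. PTPN6 (probe A_23_P162486) was read at 5.37, 5.07, 5.01, 4.70 and 7.004 in miR-1225-3p replicates 1 to 5 and at 7.67, 7.47, 7.50, 7.19 and 6.999 in scrambled replicates 1 to 5. Replicates 1 to 4 lay far below the scrambled arrays, and replicate 5 lay just above the lowest of them. PTPN6 was 3.81-fold lower, at 5.43 ± 0.910 against 7.36 ± 0.268 (SD, n = 5 each), with log2FC -1.93, SE 0.386 and a 95% interval from -2.79 to -1.07 (limma, adjusted p = 0.0139). The two-sided exact permutation test gave p = 0.0159, and by size of change PTPN6 ranked 945 of the 17379 genes. Without replicate 5 it was 5.01-fold lower (limma, adjusted p = 3.77e-05).

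The size of the PTPN6 change depends on dim signals. All 5 scrambled arrays and 3 of the miR-1225-3p arrays read the probe well above background, and replicates 3 and 4 of the latter, the lowest, did not. It is printed 10 times per array, and the SD over its spots within an array was between 0.081 and 0.399 (median 0.114), a technical spread that does not cover cultures or background. With normexp, a background correction that compresses dim values, on the median signal, the log2 fold change was -0.89 and still passed (limma, adjusted p = 0.0124).

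PTPN11, the close relative of PTPN6 that also carries growth factor signals to the Ras pathway, did not pass. Its brightest probe (A_23_P99027) read 10.18, 9.82, 9.44, 8.43 and 10.02 in miR-1225-3p replicates 1 to 5 and 9.93, 10.10, 10.01, 10.09 and 10.04 in scrambled replicates 1 to 5. The scrambled arrays were tight and the miR-1225-3p arrays spread on both sides of them. The log2FC was -0.45 with a 95% interval from -1.11 to 0.20 (limma, adjusted p = 0.233). A further probe (A_23_P105436) read 7.56, 7.33, 7.23, 7.01 and 6.54 against 6.18, 5.79, 6.35, 6.33 and 7.59, a log2FC of 0.69 that did not pass either (adjusted p = 0.114 from limma over all kept probes).

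PTPN6 was set beside PTPN11 in the same way, again with no test because PTPN6 had been picked by the study for its fall. By the brightest probes the difference between both signals on an array averaged -4.15 ± 0.765 after miR-1225-3p and -2.67 ± 0.313 after the scrambled precursor (SD, n = 5 each), a shift of -1.48 on the log2 scale. Without replicate 5 the shift was -1.76. The shift depends on the dim PTPN6 signals, since with the normexp background correction the changes lay closer together, at -0.89 for PTPN6 and -0.44 for PTPN11. The further PTPN11 probe, which stood at 0.69, was not used for it.

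**Figure D3:**
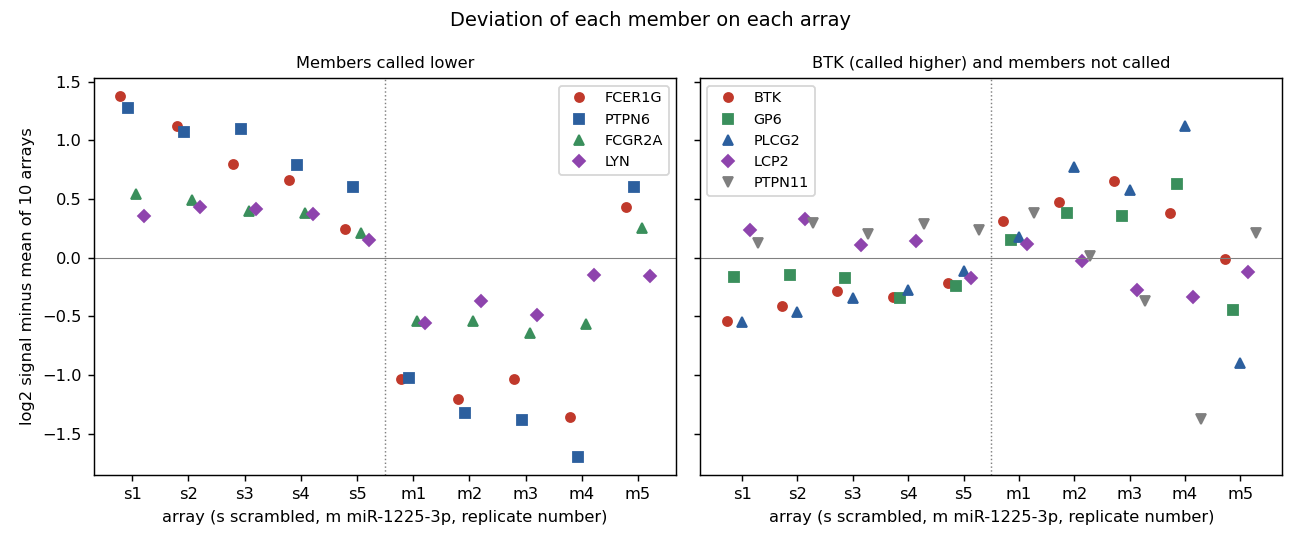
Deviation of each gene's log2 signal from its mean over the 10 arrays (vertical axis) on each array (horizontal axis, scrambled replicates s1 to s5 and miR-1225-3p replicates m1 to m5), for the 4 genes called lower (left) and for BTK and the 4 genes not called (right). FCER1G and PTPN6 lie near each other on most arrays, and at m5 both lie on the scrambled side.

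FCER1G and PTPN6 had close patterns over the arrays. The study had picked both for their fall on these arrays, so some nearness follows from that choice. With each gene centred on its mean over the 10 arrays, the root mean square distance between FCER1G and PTPN6 was 0.232 on the log2 scale, a description of 10 arrays that share the same group difference. Measured from FCER1G, FCGR2A followed at 0.531, LYN at 0.692, PTPN11 at 0.820 and LCP2 at 0.865, while GP6 (1.29), BTK (1.38) and PLCG2 (1.56) were farthest. Outside the 10 genes, the nearest to FCER1G among 11990 genes detected above background throughout were the transcript listed as BC000228 (0.119), STIM1 (0.149), IL2RG (0.164), RMRP (0.166) and FOXD2 (0.166). For PTPN6 they were FAM83A (0.160), CTBP1 (0.163), RNF5 (0.164), CD82 (0.178) and IL2RG (0.183). STIM1 is the calcium sensor of the internal stores that ITAM signalling empties. It and the other genes listed as nearest to FCER1G were all nearer than any of the other 8 members tested. They were picked for nearness out of 11990 genes, so this follows from the ranking, and a shared role was not tested.

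The rest of the pathway was read from 80 further genes, of which 76 had a matched probe and 60 were tested. Of these 60, 24 were called (40.0%, beside the 35.0% of all genes), 17 lower and 7 higher, with a median log2 fold change of -0.40. Lower genes were 28.3% of the 60 and higher genes 11.7%, beside 18.1% and 17.0% of all genes. A fold above 2 was reached by 9 of the lower (15.0%) and 2 of the higher genes (3.33%), beside 11.7% and 5.69% of all genes. The groups did not overlap for 7 genes, and that share, 11.7%, was near the 12.7% of all genes. STIM1, PTPRJ, PTPN1, INPP5D, PIK3CG and VAV1 stand in the study's list of changed genes from these arrays, so their calls are not independent evidence. In 7 of the 60 genes the probe was well above background on enough arrays in the scrambled group only, so these entered the test through their scrambled signal alone, and 2 of them, PTPRJ and DOK2, were called. The count moved strongly with single arrays. It was 34 without miR-1225-3p replicate 5, and leaving out any other array lowered it, to 6 without miR-1225-3p replicate 3 and 7 without replicate 2, and to between 10 and 15 for the other 7 arrays, while the share of all genes called ranged from 12.3% to 55.4%. With the 75th percentile subtracted the split was 13 lower and 12 higher.

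Among the 6 genes tested from the list of other ITAM receptors and chains, 1 was lower and 1 higher (33.3% called, beside 35.0% of all genes). FCGR2B, the inhibitory IgG receptor that shares most of its sequence with FCGR2A, was listed here although it carries an ITIM and no ITAM. It had log2FC -1.07 with SE 0.293 (adjusted p = 0.0241 from limma). FCGR3A, an IgG receptor that signals through the FCER1G chain, was 2.54-fold higher (log2FC 1.35, adjusted p = 0.0225 from limma). Its scrambled signal was dim, at a mean of 5.12 and well above background on 4 of 5 arrays. TYROBP, the chain most like FCER1G in function, was at -0.33 and CD79A, an ITAM chain of the B cell receptor, at -1.47, and neither passed (adjusted p = 0.263 and 0.0626 from limma).

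Of the 7 other kinases and kinase regulators tested, 2 were lower and 1 higher (42.9% called, beside 35.0% of all genes). CSK, the kinase that holds Src family members in their inactive state, was 4.66-fold lower (log2FC -2.22, adjusted p = 0.0203 from limma). FYN, a Src family kinase that works beside LYN at GP6, had a log2FC of -0.85, and FGR, another member of the family, was at 0.71 and called higher (adjusted p = 0.0356 and 0.0335 from limma). FGR was dim in both groups, at means of 5.04 after miR-1225-3p and 4.33 after the scrambled precursor. SRC itself was at -1.48 and did not pass (limma, adjusted p = 0.111).

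Of the adaptors, 1 of 12 was lower and 1 higher (16.7% called, beside 35.0% of all genes). GRB2, which links phosphorylated receptors and LAT to Ras activation, was 4.03-fold lower, at 7.51 ± 1.09 against 9.52 ± 0.190 (SD, n = 5 each, log2 fold change -2.01, limma, adjusted p = 0.0154). NCK2, an adaptor to the actin machinery, was called higher at 0.85 (limma, adjusted p = 0.0311), while its further probe stood at 0.28. LAT, the membrane scaffold that LCP2 joins, read 14.43 ± 0.180 against 14.29 ± 0.0991 (SD, n = 5 each) and did not pass (limma, adjusted p = 0.372).

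Effector enzymes and calcium entry genes gave 8 lower and 4 higher of 24 tested (50% called, beside 35.0% of all genes). FERMT3, the kindlin that activates platelet integrins at the end of the pathway, was 4.23-fold lower (log2FC -2.08, adjusted p = 0.0282 from limma). STIM1 was 3.04-fold lower, at 6.17 ± 0.701 against 7.78 ± 0.311 (SD, n = 5 each, limma, adjusted p = 0.0138). PRKCQ, a protein kinase C isoform, had a log2FC of -1.45 with 3 of 5 miR-1225-3p arrays above background, and PIK3CG, a catalytic subunit of phosphoinositide 3-kinase, one of -1.24 (adjusted p = 0.0242 and 0.0178 from limma).

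Of 11 other phosphatases and ITIM receptors tested, 5 were lower and 0 higher, beside 18.1% and 17.0% of all genes, and their median log2 fold change was -0.43. FCGR2B was counted with the receptors and chains above and not here. Of the 5, PTPRJ and DOK2 were tested only because of their scrambled arrays, so a gene of this kind had to be dimmer after miR-1225-3p, and their values are a description. PTPRJ, the receptor phosphatase that primes Src family kinases in platelets, cleared the background on 1 array after miR-1225-3p and on all 5 scrambled arrays, with log2FC -3.32. DOK2, a docking protein that restrains signalling, did so on 2 and on 5 arrays, with log2FC -2.35. MPIG6B, a megakaryocyte ITIM receptor that recruits PTPN6 and PTPN11, had a log2FC of -0.84 and INPP5D, a lipid phosphatase recruited to ITIMs, one of -0.53 (adjusted p = 0.0230 and 0.0233 from limma). Over the 5 roles, the 15 called genes described here were all called without miR-1225-3p replicate 5 as well, each farther from 0. These genes were named for their change, and that array scored with the scrambled group. The outcome was therefore likely beforehand and adds no support. Over all genes the share called rose from 35.0% to 55.4%.

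**Figure D4:**
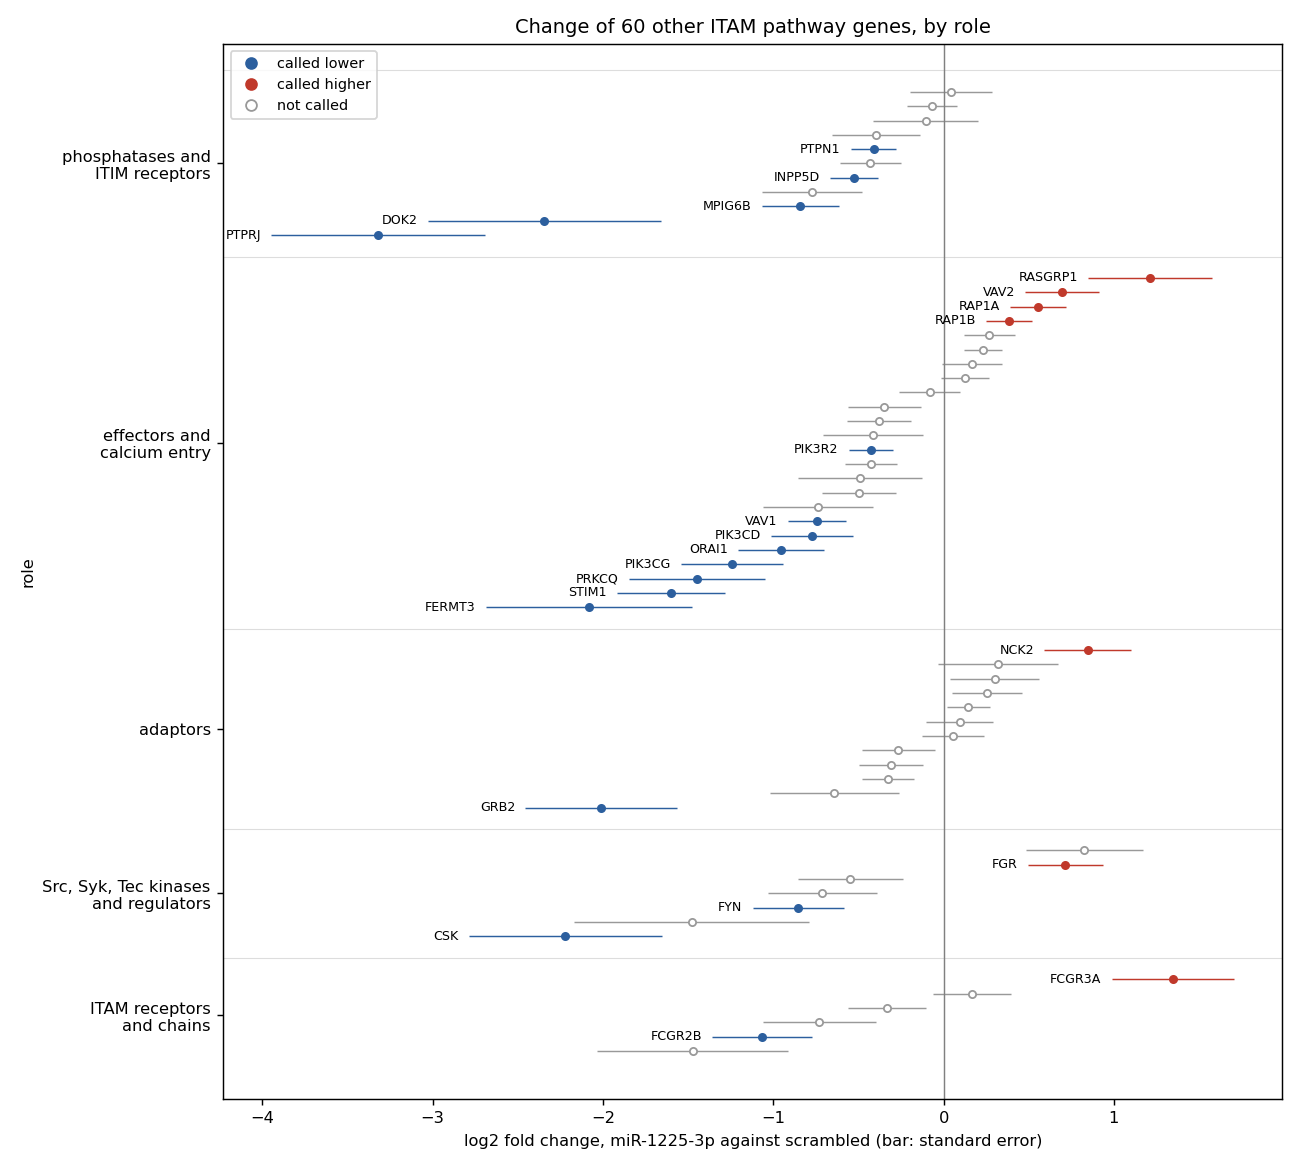
Log2 fold change, miR-1225-3p against scrambled (horizontal axis), of the 60 further pathway genes tested, ordered by size within 5 roles (vertical axis), with standard errors as bars; blue genes were called lower, red genes higher and open grey ones not called. PTPRJ, DOK2, CSK, FERMT3 and GRB2 lie farthest to the left, the first 2 of them dim after miR-1225-3p, and FCGR3A and RASGRP1 farthest to the right.

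Markers of blood cell types were read in the same contrast, in which 35.0% of all genes were called, 18.1% lower and 17.0% higher. Of 13 megakaryocyte markers 12 had a probe, 7 were well above background on all 10 arrays, 4 were called lower (ITGA2B, GATA2, FLI1 and NFE2) and 0 higher, and PF4 was well above background on no array. Summed on a linear scale, the signal of these 12 probes ran from 6770 to 8520 after miR-1225-3p and from 9990 to 11400 after the scrambled precursor, without overlap. Most of this sum is NFE2, by far the brightest probe, at a mean log2 signal of 12.39 against 12.82. It is thus no reading of the 12 markers together, and PPBP stood slightly higher after miR-1225-3p (9.45 against 9.28). Of 8 monocyte and granulocyte markers with a probe, MPO and S100A8 were called higher and 0 lower, with sums of 784 to 1150 against 638 to 804. ELANE went the other way, at 6.59 after miR-1225-3p against 7.53, and was not called (limma, adjusted p = 0.0549). CD14 was well above background on all arrays. Of 5 lymphocyte markers, CD3E was called higher and NKG7 lower, MS4A1 was well above background on no array, and the sums were 2920 to 4900 against 3730 to 5470. The counts of called markers are small and are given only as values beside those shares, and GATA2, FLI1 and NFE2 stand in the study's list of changed genes too. The part of these changes in the values of FCER1G, PTPN6 and the other genes was not tested.

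Both slides held arrays of both groups and were read apart. With the slide as a block FCER1G had a log2FC of -1.73, PTPN6 of -1.96, FCGR2A of -0.84, LYN of -0.71 and BTK of 0.73, and all 5 passed in limma. Within slide 1, which held miR-1225-3p replicates 1 and 2 and 3 scrambled arrays, the same 5 passed, with -1.92 for FCER1G and -2.17 for PTPN6, beside 25.9% of all genes. Within slide 2, which held miR-1225-3p replicates 3 to 5 and 2 scrambled arrays, FCER1G was at -1.54 and PTPN6 at -1.75, and limma called 0 of the 9 genes, with 1 at an unadjusted p under 0.05 and 0 of all genes called. FCER1G, FCGR2A, LYN, BTK and PTPN6 were called each time when any single array was left out.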

How the data were processed

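Total RNA of 5 miR-1225-3p and 5 scrambled MEG-01 cultures (groups taken from the sample titles) was labelled with Cy3 and hybridized to Agilent SurePrint G3 arrays, 1 array a culture. A source label calls the scrambled samples untreated, whereas titles and methods describe a control transfection, and the latter was used. The authors deposited Feature Extraction output (version 10.7.3.1 per the file headers, another version in the methods), whose processed signal is an intensity with background subtracted, beside median spot and background intensities and flags. They also deposited a table of normalized log2 values for 29271 probes, which correlated with those computed here at 0.848 to 0.988 per array after centring each probe. The methods express these values against controls. The scale and the direction of that table matched the arrays, and what it was centred on is not settled.

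Log2 processed signals of 58717 spots (control spots and outlier flags removed) were normalized by cyclic loess (limma 3.58.1, R 4.3.3, fast method, 3 iterations) and averaged per probe. Kept were 20648 probes flagged well above background by 3 or more arrays in a group, accessions were matched to RefSeq symbols (24910 of 42405 probes), and each gene took its kept probe of highest mean signal. limma (lmFit, eBayes) with Benjamini-Hochberg adjustment over 17379 genes, or over all kept probes where stated, was the test. Exact permutation tests were two-sided. Scripts were tested on simulated data. Tests of unequal change had been planned for 3 pairs of members. They are not reported, since the study chose FCER1G and PTPN6 on these arrays and SYK, the partner of LYN, was not above background.

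The 10 genes and the lists were chosen with earlier results of these data known. Named were the 10 genes, up to 4 called pathway genes of largest change in each role, and the 5 genes nearest in pattern to FCER1G and to PTPN6, other names having been chosen after their values were seen. Array names follow an hg19 design, so no gene coordinates are given. A listed marker is not reported here.

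Alternatives tried were other normalizations, the authors' table or normexp values, other dim-probe filters, outlier spots kept, other probes of a gene, other tests (that of the methods included), a replicate or slide block, each slide alone, and each array left out.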

Additional observations from a re-analysis of the deposited data

Results flagged for a closer look

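In 24 groups of 5 arrays, a group being 1 kept probe in 1 condition, 3 held an array far from the other 4, where chance alone gives about 1 in 20 groups, here 1.2. FCER1G on miR-1225-3p replicate 5 was the highest of its group at 11.41. FCGR2A on the same array was the highest of its group at 12.73 with its brightest probe. LYN on scrambled replicate 5 was the lowest of its group at 10.77, still above every miR-1225-3p array. Of these 3 arrays 2 were miR-1225-3p replicate 5, the array that also scored with the scrambled group on the first principal component. The cause of its position was not tested.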

How the results depend on the processing

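FCER1G kept its direction in 26 alternatives and PTPN6 in the 25 that gave it a value, the filter for all 10 arrays having dropped its probe, and each kept its call in all but 2 of them. With the replicate block FCER1G was at -1.68 and PTPN6 at -1.93 (adjusted p = 0.0518 for both from limma), and within slide 2 they were at -1.54 and -1.75 (adjusted p = 0.494). Leaving out single arrays moved FCER1G between -1.995 and -1.54 and PTPN6 between -2.32 and -1.75. The number of members called, 5, was 3 with the 75th percentile subtracted, 2 without normalization, 0 with the replicate block (5 at an unadjusted p under 0.05), 0 within slide 2 (1 unadjusted) and 5 to 7 without single arrays. The number of pathway genes called, 24, was 6 without normalization, 12 when dim probes were kept, 15 with all 10 arrays well above background, 45 with array weights, 0 with the replicate block (30 unadjusted), 0 within slide 2 (5 unadjusted) and 6 to 34 without single arrays. The share of all genes called, 35.0%, moved too. It was 41.1% with the 75th percentile subtracted, 7.28% without normalization and 9.67% when dim probes were kept. With all 10 arrays well above background it was 39.0%, and with array weights 71.3%. Within slide 2 it was 0%, and without single arrays 12.3% to 55.4%. Replicate numbers did not pair the samples (correlations of deviations between -0.402 and 0.072), and with the block limma called 0 of all genes (7474 unadjusted). Directions turned for LCP2 (0.17, 75th percentile), PTPN11 (0.12 with the mean of probes, 0.69 with its further probe, 0.012 within slide 1) and BTK (-0.58 with its further probe), none of them called. FCGR2A (-0.69), LYN (-0.66) and BTK (0.77) did not pass without normalization. GP6 and PLCG2 passed with array weights (0.62 and 1.02) as they did without miR-1225-3p replicate 5. That array had the lowest weight (0.12), so these settings are alike and not independent of each other. The causes were not tested. Dim signals limit PTPN6, PTPRJ and DOK2, and SYK could not be measured.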

Other observations

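Partner genes at the calcium and integrin end of the pathway were read side by side after their values were seen. ORAI1, the plasma membrane calcium channel that STIM1 opens, was called lower as STIM1 was, with a log2 fold change of -0.95 (limma, adjusted p = 0.0217) and groups that did not overlap. RAP1A and RAP1B, the small GTPases that switch integrins on, were both called higher, at 0.55 and 0.39 (adjusted p = 0.0290 and 0.0476 from limma), and a further RAP1B probe stood at 0.42. VAV1, the exchange factor that works with LCP2, was called lower at -0.74 with separate groups, and its relative VAV2 was called higher at 0.69 (adjusted p = 0.0164 and 0.0341 from limma). RASGRP1 was called higher at 1.21, and RASGRP2, the main Rap1 exchange factor of platelets, was at 0.23 and did not pass (adjusted p = 0.0306 and 0.12 from limma). The scrambled signal of RASGRP1 was dim, at a mean of 4.43. Of these pairs, VAV1 and VAV2 alone were called in opposite directions, and no difference between partners was tested.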
